A study of Homo sapiens with 12 samples.

Results

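The 10 genes described here encode 3' exonucleases of the DEDD class: ERI1, ERI2 and ERI3 of the ERI family, REXO1, REXO2 and REXO4, ISG20L2, AEN, PARN and TREX1. They were taken by name from the 55765 gene names of the RNA-seq table, and all 10 were found and passed the filter on low counts, among 18843 genes tested. Their mRNA was compared between cells given ERI2 siRNA and cells given control siRNA.

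DEDD exonucleases remove nucleotides one after another from the 3' end of RNA or DNA, and are named for the acidic residues that hold metal ions in the active site. Their substrates differ: histone mRNA and ribosomal RNA ends for ERI1, poly(A) tails and the ends of some noncoding RNAs for PARN, very short RNAs in mitochondria for REXO2, and DNA in the cytosol for TREX1. ERI2 is among the less studied members.

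The cells carry the label HEK293T, a human embryonic kidney line with a viral large T antigen, while the growth protocol in the labels names the parental HEK293. They received 50 nM of control siRNA or ERI2 siRNA from a commercial collection, were transfected again after 48 hours and were collected 72 hours after that second transfection. Each group had 3 RNA-seq libraries, 6 in all, out of 12 libraries in the series, and the other 6 measured microRNA and are not used here. The protocol text in the labels also speaks of ERI-1 siRNAs, while the label of each library names ERI2 or control. The labels give neither a second ERI2 siRNA group nor a rescue, so effects of the siRNA other than loss of ERI2 cannot be told apart from it. Nothing in the labels says that replicates were separate cultures, so every p-value rests on library-to-library spread that may be technical only.

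The libraries held from 29143596 to 38306631 counts, 99.9% of them in tested genes in each library. No pair of replicates looked like one library deposited again: their counts differed beyond sampling noise (chi-square divided by degrees of freedom, 4.66 or more). Both replicate 1 libraries stood apart: along the first principal component of log2 expression, with 45.2% of the variance, they lay at -6.29 (control) and 8.45 (knockdown), between the other controls at -31.8 and -32.4 and the other knockdown libraries at 25.7 and 36.4. On the second component, with 19.3% of the variance, they lay at opposite ends, at 23.3 (control) and -33.4 (knockdown). The other libraries lay between -4.95 and 7.34 there. The labels name no batch for this. Where the call of a member or of a gene named from a list changed, or the count of a list moved, in a fit of replicates 2 and 3 alone, this is stated beside it. That fit leaves out both libraries that lay nearest the other group on the first component, so wider separation follows from the choice itself. Its p-values and counts of calls are descriptive. The same applies to a fit that leaves out either replicate 1 library. The labels do not say whether replicate numbers pair the libraries, so differences between same-numbered libraries are descriptive only. Of 8 marker genes of HEK293 lines, all were detected, 6 of them with a mean of at least 10 CPM (counts per 1e+06 counts, with libraries scaled by trimmed mean of M-values), with summed levels of 1366 to 1601 CPM in control and 1407 to 1632 CPM in knockdown libraries. CKB rose (0.64) and NEFL (-0.50) and INA (-0.49) fell, 3 of the 8. The sum hides opposite changes: CKB went from 342 to 531 CPM and VIM, the highest, from 924 to 736 CPM. VIM did not pass (-0.33, edgeR adjusted p = 0.0713). With replicates 2 and 3 alone 2 of the 8 were higher, CKB and PAX2, and 4 lower, NEFL, INA, NEFM and VIM. That fit called 28% of all genes. Summed over a list, markers of blood cells stayed at or below 1.603 CPM and of hepatocytes at or below 0.507 CPM in every library. Of the endothelium markers PECAM1 could not be matched to a name, and CDH5 alone stayed at or below 0.0810 CPM in every library. The 5 fibroblast markers summed to 15.7 to 19.0 CPM in control and 13.8 to 18.1 CPM in knockdown libraries, with COL1A1 highest at a mean of 9.86 CPM, and COL3A1 fell from 5.92 to 2.85 CPM, while DCN averaged 0.0165 CPM. The summed level of 5 keratinocyte and cervical carcinoma line markers, 3 of them tested, was 18.1 to 21.3 CPM in control and 9.57 to 9.82 CPM in knockdown libraries: ANXA1 (-1.36), EPCAM (-1.04) and CDH1 (-0.53) fell, and KRT5 had no count. Fitted on replicates 2 and 3, EPCAM was not called and ANXA1 and CDH1 were lower. Of the fibroblast markers COL1A1 was higher and COL3A1 lower in that fit. The part of all these markers in the results below was not tested. In bulk RNA, fewer cells of a type and less RNA per cell cannot be told apart.

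All 10 exonuclease mRNAs were present, 9 of them with a mean of at least 10 CPM and TREX1 below that. At an adjusted p under 0.05 over all genes tested (edgeR quasi-likelihood fit, Benjamini-Hochberg adjusted), 1 member fell, ERI2, and 1 rose, REXO1. Among all genes tested 8.54% passed, 4.29% higher and 4.25% lower. The member count of 2 in 10 includes the siRNA target itself. With replicates 2 and 3 alone AEN and TREX1 were called as well, 4 members, in a fit that called 28% of all genes, 13.9% higher and 14.1% lower. Before adjustment 5 members had a p under 0.05 in the fit of all 6 libraries (ERI1, ERI2, REXO1, AEN and TREX1), against 26.5% of all genes. The median log2 fold change of the members was -0.01 and that of all genes 0.003; the median absolute change was 0.15 and 0.17. Summed over the 10 members, the level was 450, 493 and 483 CPM in control replicates 1, 2 and 3, and 445, 445 and 440 CPM in knockdown replicates 1, 2 and 3. No transcript lengths were used, so levels are compared between groups for a gene and never between genes.

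**Figure D1:**
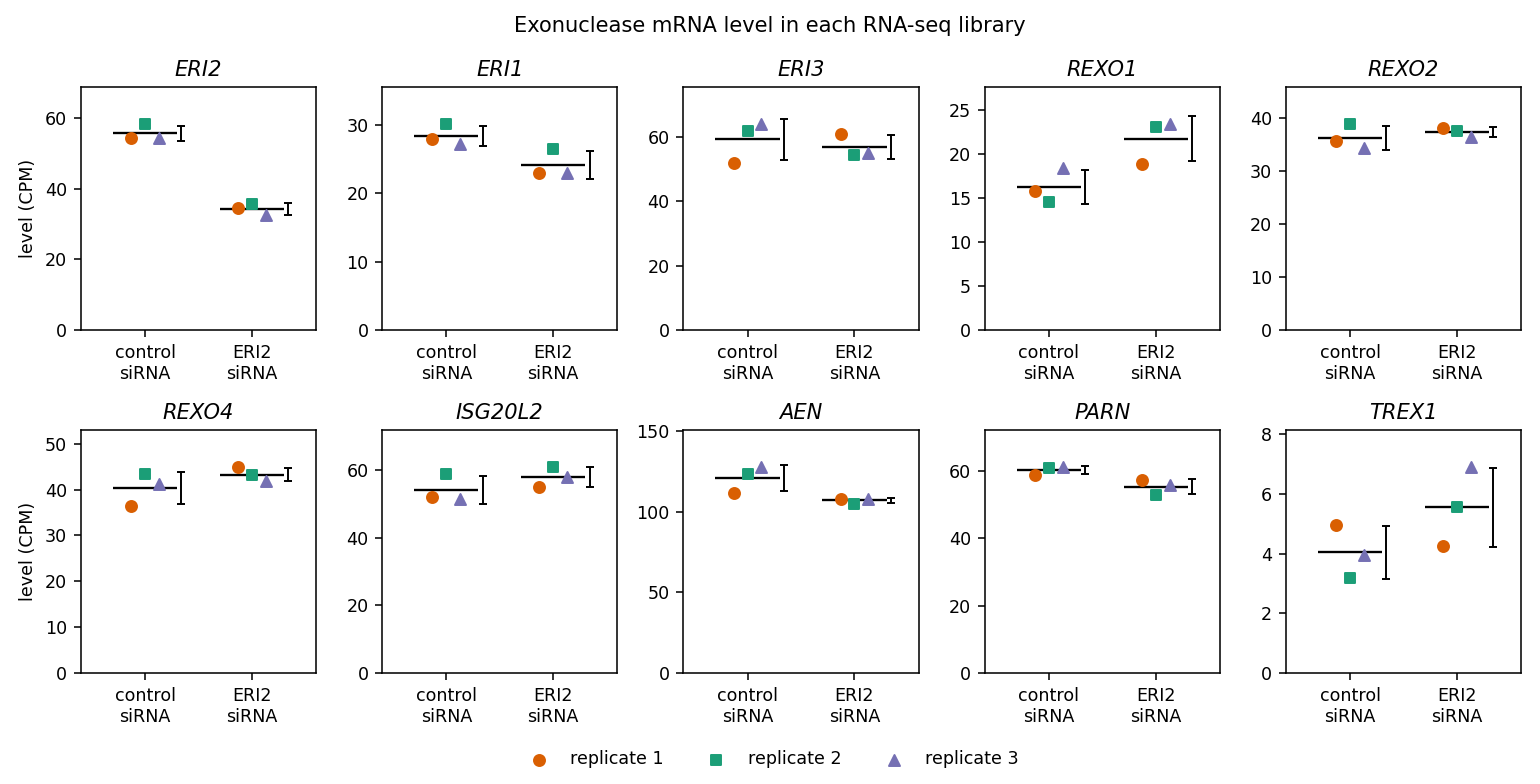
Level of each exonuclease mRNA in CPM (vertical axes, each from 0) in the 3 control and 3 ERI2 siRNA libraries; points are libraries, horizontal bars group means and whiskers 1 SD. ERI2 lies at 32.5 to 35.8 CPM in knockdown against 54.4 to 58.2 CPM in control libraries, while ERI3, REXO2, REXO4, ISG20L2 and TREX1 overlap between groups.

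ERI2, the target of the siRNA, had 1912, 2155 and 1562 reads in control replicates 1, 2 and 3 and 1091, 1205 and 984 reads in knockdown replicates 1, 2 and 3. These correspond to 54.4, 58.2 and 54.4 CPM against 34.6, 35.8 and 32.5 CPM, so the groups were separate and narrow. Knockdown left 61.5% of the control level, a log2 fold change of -0.70 (95% interval -0.86 to -0.54; edgeR's quasi-likelihood test, adjusted p = 0.000683), and 6 genes of the 18843 had a smaller p. The difference was similar in each same-numbered pair of libraries, -0.65, -0.70 and -0.74, and was called without any 1 library (adjusted p from 0.000319 to 0.00459 in edgeR). As a fold of the control level the interval ran from 0.55 to 0.689.

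ERI1 binds the stem-loop at the end of histone mRNA and trims it, and trims a ribosomal RNA end as well. Its level was 27.8, 30.04 and 27.2 CPM in control replicates 1, 2 and 3 and 22.9, 26.5 and 22.9 CPM in knockdown replicates 1, 2 and 3. Every knockdown library lay below every control library, as did 15.6% of all genes tested. The mean was 28.4 ± 1.49 CPM against 24.1 ± 2.08 CPM (SD, n = 3), a log2 fold change of -0.23 (95% interval -0.43 to -0.04). ERI1 missed the threshold (edgeR adjusted p = 0.112) and passed in none of 15 alternative analyses, with adjusted p from 0.112 to 0.339. By same-numbered pair the difference was -0.28, -0.18 and -0.24, its direction fixed by the separation of the groups. Whether any library described here received ERI-1 siRNA, which the protocol text mentions, the sources used here do not say.

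ERI3, a family member also known as a prion protein-interacting protein, had 51.9, 61.6 and 63.8 CPM in control replicates 1, 2 and 3 and 60.9, 54.3 and 54.8 CPM in knockdown replicates 1, 2 and 3. The groups overlapped, and the control group spread more widely than the difference between means, 59.1 ± 6.32 against 56.7 ± 3.67 CPM (SD, n = 3). The log2 fold change was -0.06 (95% interval -0.25 to 0.13; edgeR adjusted p = 0.706). The sign depended on which libraries were set against each other: 0.23 between those numbered 1, but -0.18 and -0.22 between those numbered 2 and 3. With replicates 2 and 3 alone the change was -0.20 (edgeR adjusted p = 0.0545), short of the threshold.

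Within the ERI family, shares of reads are free of any scaling between libraries. ERI2 took 40.5%, 38.8% and 37.4% of the reads of the 3 genes in control replicates 1, 2 and 3, and 29.2%, 30.7% and 29.5% in knockdown replicates 1, 2 and 3. The share of ERI3 went from 41.2 ± 2.59% to 49.3 ± 2.47% and that of ERI1 from 19.8 ± 1.05% to 21.0 ± 1.71% (SD, n = 3). The ERI2 and ERI3 shares did not overlap between groups, with an exact permutation p = 0.1 (two-sided) for each, the smallest that 3 against 3 libraries can give, and p = 0.4 for ERI1. The 3 shares sum to a fixed total, so a lower ERI2 share raises the others. For each ERI1 read there were 1.95, 1.94 and 2.003 ERI2 reads in control replicates 1, 2 and 3 and 1.51, 1.35 and 1.42 in knockdown replicates 1, 2 and 3.

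Set against each of the 9 other members in the same library, ERI2 reads were lower after knockdown in every case, and the ranges of the groups did not overlap. The log2 ratio fell least against ERI1 (difference -0.46), AEN (-0.53) and PARN (-0.58), and most against REXO1 (-1.12) and TREX1 (-1.15). Each of the 9 ratios had an exact permutation p = 0.1 (two-sided; 0.1 after Benjamini-Hochberg adjustment over the 9), which is the smallest possible. All 9 ratios use the same ERI2 counts and are not independent.

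**Figure D2:**
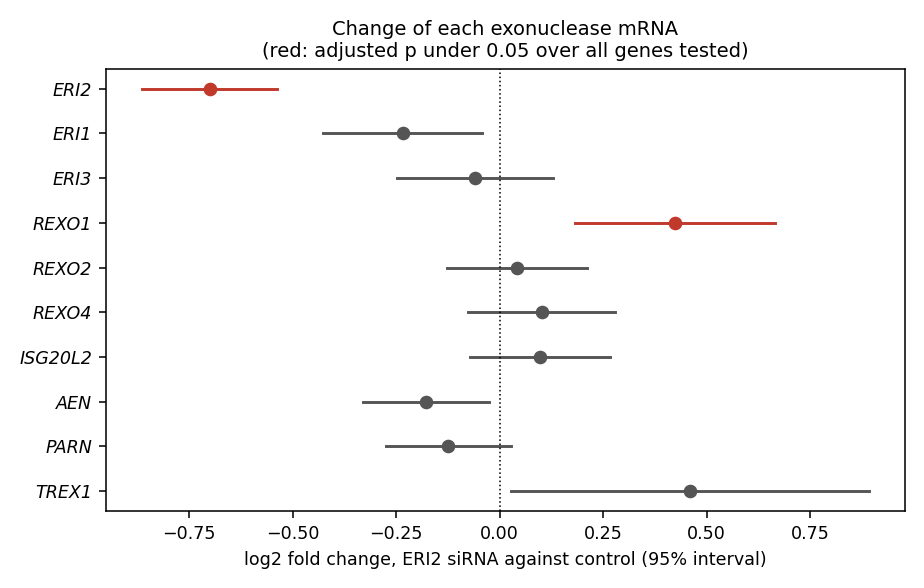
Log2 fold change of each member (horizontal axis), ERI2 siRNA against control, with its 95% interval from edgeR's fit over all genes. ERI2 (-0.70) and REXO1 (0.42), in red, passed; the intervals of ERI3, REXO2, REXO4, ISG20L2 and PARN contain 0.

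REXO1, known as a binding partner of the transcription elongation factor Elongin A, was called higher in the fit of all 6 libraries and in 10 of 15 alternatives. It had 557, 540 and 530 reads in control replicates 1, 2 and 3 and 596, 779 and 710 in knockdown replicates 1, 2 and 3. In CPM these were 15.8, 14.6 and 18.5 against 18.9, 23.1 and 23.4, so the lowest knockdown library stood just above the highest control library. Groups were separate in this direction for 14.1% of all genes tested. REXO1 rose by a log2 fold change of 0.42 (95% interval 0.18 to 0.66; edgeR's quasi-likelihood test, adjusted p = 0.0337), from 16.3 ± 1.98 to 21.8 ± 2.54 CPM (SD, n = 3), 134% of the control level. By same-numbered pair the difference was 0.25, 0.66 and 0.34. The call was near the threshold: it ended without control replicate 1 (adjusted p = 0.0519 in edgeR), control replicate 2 (0.125), knockdown replicate 2 (0.136) or knockdown replicate 3 (0.142). With replicates 2 and 3 alone it was 0.50 (adjusted p = 0.00339 in edgeR).

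The 250 bases before the REXO1 start are shown because REXO1 is the member beside the siRNA target that was called with all 6 libraries (RefSeq, GRCh38.p14, chr19:1848484-1848733, minus strand, printed 5′ to 3′). Capitals mark GGGCGG, a GC box, searched on both strands as GGGCGG or CCGCCC.
REXO1: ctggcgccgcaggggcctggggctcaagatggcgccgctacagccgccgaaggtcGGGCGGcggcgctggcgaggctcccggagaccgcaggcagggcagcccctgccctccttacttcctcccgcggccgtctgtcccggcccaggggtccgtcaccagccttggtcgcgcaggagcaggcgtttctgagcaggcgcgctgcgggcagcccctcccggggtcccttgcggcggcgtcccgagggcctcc
The window is 76.4% G or C and holds 29 CG pairs, against medians of 58% and 11 over all 35116 windows of this length. The GC box lies 195 to 190 bases before the start. A GC box was found in 42.6% of all windows. Of the 8 members whose windows were searched, 6 had it in at least 1 window (ERI3, REXO1, REXO4, ISG20L2, AEN and PARN, but not REXO2 and TREX1). ERI1 and ERI2 were not searched. TATAAA, searched on both strands, was found in 10.7% of all windows and in none of the members'. CCAAT, searched on both strands, was found in 32.01% of windows and in those of ERI3 and AEN.

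REXO2 and REXO4 did not differ beyond their spread. REXO2, the oligoribonuclease that degrades very short RNAs in mitochondria and cytosol, had 35.7, 38.9 and 34.4 CPM in control replicates 1, 2 and 3 and 38.2, 37.6 and 36.4 CPM in knockdown replicates 1, 2 and 3. Its log2 fold change of 0.04 had a 95% interval of -0.13 to 0.21 (edgeR adjusted p = 0.770). REXO4, a nucleolar protein related to a yeast ribosomal RNA processing factor, had 36.5, 43.4 and 41.2 CPM against 44.9, 43.1 and 41.9 CPM in replicates 1, 2 and 3. Its log2 fold change was 0.10 (95% interval -0.08 to 0.28; edgeR adjusted p = 0.463). Between same-numbered libraries the differences were 0.30, -0.01 and 0.02. ISG20L2, a nucleolar exonuclease that trims a ribosomal RNA precursor, had 52.0, 58.9 and 51.4 CPM against 54.9, 60.8 and 57.9 CPM in replicates 1, 2 and 3. The groups overlapped, with a log2 fold change of 0.10 (95% interval -0.07 to 0.27; edgeR adjusted p = 0.464). The upper bounds of these 3 intervals correspond to rises of 1.16-fold for REXO2, 1.21-fold for REXO4 and 1.203-fold for ISG20L2.

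AEN, a nuclear exonuclease that degrades DNA and RNA during apoptosis, had 3931, 4577 and 3660 reads in control replicates 1, 2 and 3 and 3406, 3541 and 3272 in knockdown replicates 1, 2 and 3. In CPM these were 112, 124 and 128 against 108, 105 and 108. The groups were separate, as they were in this direction for 15.6% of all genes tested, but control replicate 1 stood close to the knockdown libraries. The log2 fold change was -0.18 (95% interval -0.33 to -0.03), 121 ± 8.20 against 107 ± 1.64 CPM (SD, n = 3), and did not pass (edgeR adjusted p = 0.129). It passed without control replicate 1 (-0.23, adjusted p = 0.0479 in edgeR) and with replicates 2 and 3 alone (-0.24, adjusted p = 0.0133 in edgeR). By same-numbered pair the difference was -0.05, -0.23 and -0.24.

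PARN, which shortens poly(A) tails and trims the ends of telomerase RNA and small nucleolar RNAs, had 58.7, 60.9 and 61.0 CPM in control replicates 1, 2 and 3 and 57.2, 52.8 and 55.6 CPM in knockdown replicates 1, 2 and 3. All knockdown libraries lay below all controls, as they did for 15.6% of all genes tested. The log2 fold change was -0.12 (95% interval -0.28 to 0.03; edgeR adjusted p = 0.280) and did not pass in any of 15 alternatives. Among 14 genes of telomerase RNA and H/ACA RNA biogenesis 2 rose and none fell, against 8.54% of all genes called, and the median was 0.13. TERC, the telomerase RNA, rose from 107 ± 24.3 to 149 ± 17.8 CPM (SD, n = 3; log2 fold change 0.47, edgeR adjusted p = 0.0406), and NAF1, an assembly factor of H/ACA particles, rose by 0.28 (edgeR adjusted p = 0.0496). Both calls were at the threshold. Of the 6 fits that leave out 1 library, TERC was called only in that without control replicate 3 (adjusted p up to 0.167 in edgeR) and NAF1 only in that without knockdown replicate 1 (up to 0.191). TERC also missed under total library size (0.0711), under upper quartile scaling and with replicates 2 and 3 alone (0.405), and NAF1 missed in limma-voom and with no count filter. With replicates 2 and 3 alone NAF1 was called (0.0169), and 4 of the 14 genes were higher and 2 lower, against 28% of all genes called.

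TREX1, which degrades DNA in the cytosol and is mutated in Aicardi-Goutieres syndrome, had the fewest reads: 175, 118 and 114 in control replicates 1, 2 and 3 and 134, 187 and 209 in knockdown replicates 1, 2 and 3. In CPM these were 4.98, 3.19 and 3.97 against 4.25, 5.55 and 6.90, and control replicate 1 lay above knockdown replicate 1. The log2 fold change of 0.46 had a wide interval, 0.03 to 0.89, and did not pass (edgeR adjusted p = 0.163). In replicates 2 and 3 the difference was 0.79 in each pair, but -0.23 in replicate 1. With replicates 2 and 3 alone it passed (0.80, adjusted p = 0.00347 in edgeR), and also without knockdown replicate 1 (0.61, adjusted p = 0.0372). TREX1 lies inside the span of ATRIP in RefSeq's GRCh38.p14 annotation, so reads of the 2 genes may not be told apart. ATRIP, a partner of the checkpoint kinase ATR, had 35.2 CPM in control and 37.6 CPM in knockdown cells (log2 fold change 0.09, edgeR adjusted p = 0.513).

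**Figure D3:**
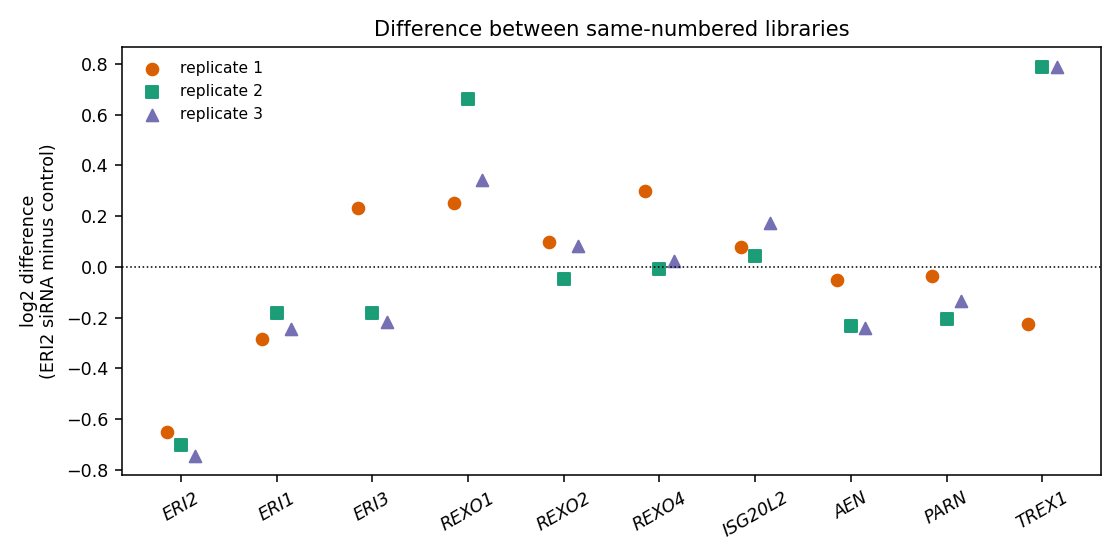
Difference in log2 CPM between the ERI2 siRNA and control libraries of the same replicate number (vertical axis), for each member. ERI2 lies between -0.74 and -0.65 in all 3 pairs, while ERI3 and TREX1 have opposite signs in replicate 1 and in replicates 2 and 3. Whether the replicate numbers pair the libraries is not known.

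Beside TREX1, genes of nucleic acid sensing and of Aicardi-Goutieres syndrome held 1 fall and no rise among 15 tested, against 8.54% of all genes called, with a median of -0.05. The fall was IFIH1, a cytosolic sensor of double-stranded RNA, at 4.12, 4.32 and 4.84 CPM in control replicates 1, 2 and 3 and 2.34, 2.11 and 2.28 CPM in knockdown replicates 1, 2 and 3 (log2 fold change -0.98, edgeR adjusted p = 0.00582). It was called without any 1 library. APEX1, a DNA repair nuclease found in a complex with TREX1, did not pass (-0.23, edgeR adjusted p = 0.113). In the fit of replicates 2 and 3 APEX1 was called (-0.38, edgeR adjusted p = 0.000995), and 6 of the 15 genes were lower and none higher, where 14.1% of all genes were lower.

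DEDD exonucleases and proofreading polymerases outside the 10 members held 1 rise and no fall among 14 tested, against 8.54% of all genes called, with a median of 0.05. POLD1, the catalytic subunit of DNA polymerase delta, which carries a proofreading exonuclease, rose from 96.7, 85.0 and 108 CPM to 129, 140 and 147 CPM in replicates 1, 2 and 3. Its log2 fold change was 0.52 (edgeR adjusted p = 0.00563), and it was called without any 1 library. ISG20, the interferon-induced relative of ISG20L2 and AEN, measured 1.72 against 2.64 CPM and did not pass (0.61, edgeR adjusted p = 0.0816). The deadenylase subunits PAN2, CNOT7 and CNOT8 did not pass, with changes of 0.01, -0.08 and -0.20, nor did the nuclear exosome nuclease EXOSC10 (0.06) or TOE1 (0.05). REXO5 could not be matched to a name in the table and EXD1 had too few reads to test. Fitted on replicates 2 and 3, CNOT7 (-0.21, edgeR adjusted p = 0.0417) and CNOT8 (-0.28, 0.0240) were lower and ISG20 (0.71, 0.0370), POLD1, POLG and EXD3 higher, 6 of 14 genes in a fit that called 28% of all genes.

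Among 11 3' exonucleases of other folds 1 fell and none rose, against 8.54% of all genes called, with a median of -0.03. It was CNOT6L, a deadenylase of the CCR4-NOT complex, at 66.1 ± 2.10 against 53.7 ± 3.33 CPM (SD, n = 3; log2 fold change -0.30, edgeR adjusted p = 0.0249). The call ended under total library size (adjusted p = 0.0567 in edgeR) and without control replicate 2, control replicate 3, knockdown replicate 2 or knockdown replicate 3 (adjusted p up to 0.127). ANGEL1, another member of that fold, did not pass (-0.21, edgeR adjusted p = 0.0974). Replicates 2 and 3 alone gave USB1 higher (0.33) and DIS3 (-0.19) and CNOT6L lower, 3 of 11 genes against 28% of all genes.

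The shares called in the lists beside ERI1, ISG20L2 and REXO2 are read against the 8.54% of all genes. Of 12 histone mRNA end and decay factors, 0 passed in edgeR, DESeq2 or limma-voom, with a median of 0.00031. UPF1 (0.16) and ZCCHC11 (0.16) had an edgeR p below 0.05 before adjustment, 2 genes in all. With replicates 2 and 3 alone UPF1 and ZCCHC11 were higher and SLBP (-0.32) and CPSF3 (-0.35) lower, 4 of 12 genes against 28% of all genes. Of 17 genes of the nuclear exosome and ribosomal RNA trimming EXOSC1 rose (0.28, edgeR adjusted p = 0.0481) and none fell, with a median of 0.09. EXOSC5 (0.32, edgeR adjusted p = 0.0505) did not pass, and EXOSC1 lost its call when any 1 of the 6 libraries was left out (adjusted p up to 0.221 in edgeR), but not with replicates 2 and 3 alone (0.0339). In DESeq2, and in edgeR under total library size, 3 genes of this list were higher, EXOSC4 and EXOSC5 beside EXOSC1.

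Of 13 genes of mitochondrial RNA turnover, listed beside REXO2, POLRMT and FASTK rose and none fell, with a median of 0.02. POLRMT, the mitochondrial RNA polymerase, rose from 44.5, 44.1 and 48.8 CPM to 57.8, 62.9 and 64.3 CPM in replicates 1, 2 and 3, a log2 fold change of 0.43 (edgeR adjusted p = 0.00692). FASTK, a mitochondrial RNA-binding protein, rose from 104 ± 10.2 to 144 ± 10.3 CPM (SD, n = 3; log2 fold change 0.48, edgeR adjusted p = 0.00675). Both were called without any 1 library. Without both replicate 1 libraries GRSF1, LRPPRC, SLIRP and TFAM were lower as well, 4 of 13 genes where 14.1% of all genes were lower, and SLIRP had a change of 0.01 in the fit of all 6 libraries.

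**Figure D4:**
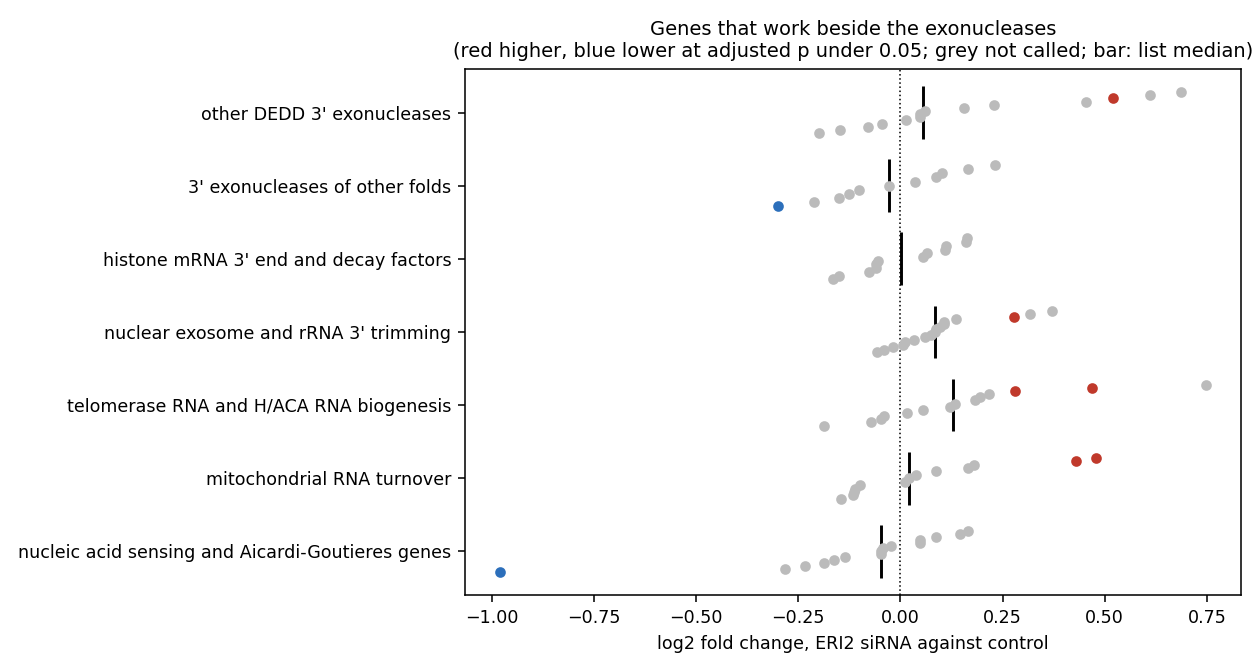
Log2 fold change (horizontal axis) of every tested gene in the gene lists described in the text; red points rose and blue points fell at an adjusted p under 0.05, grey points did not pass, and black bars are list medians. The medians of the lists drawn lie between -0.05 and 0.13.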

How the data were processed

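The authors deposited raw read counts per gene name, which the values bear out (whole numbers, unequal totals). The submitters' processing notes name HTSeq 0.6.1p1, TopHat2 2.0.10, hg19 and CASAVA 1.8.2 without their roles. The sources used here give neither strand setting nor annotation release, so how reads of overlapping and antisense genes were counted is not known. All columns matched 1 sample each.

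Counts were filtered with filterByExpr, scaled by trimmed mean of M-values and tested across all 18843 genes by the robust quasi-likelihood method of edgeR 4.0.16 (R 4.3.3), called at a Benjamini-Hochberg adjusted p under 0.05. Intervals of 95% use the fit's standard error. Log2 differences between libraries use a prior count of 2, and ratios a pseudocount of 0.5. DESeq2 1.42.0, limma-voom 3.58.1, other scalings, filters and thresholds, the replicate block, each library left out, and replicates 2 and 3 alone were alternatives. The fit was tested on simulated data. Those counts were drawn independently for each library, so they do not address the standing apart of the replicate 1 libraries.

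The members and lists were chosen with earlier results of these data known. Named were all members, up to 5 called genes per list by p or otherwise the 2 with the smallest p, members' neighbours, and the 5 genes most like ERI2. Other list members named were chosen after their values were seen. 1 list, beside AEN, is not reported here. Promoter sequences are RefSeq's, of another build (GRCh38.p14), and were searched for 8 of 10 members. ERI1 was left out of that search, and ERI2 had no window.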

Additional observations from a re-analysis of the deposited data

How the results depend on the processing

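Of 150 recomputed log2 fold changes of the members, 140 kept direction and side of the threshold, 5 lost the call, 4 gained it and 1 changed sign: REXO2 without control replicate 3, with a range of -0.0084 to 0.092 over the fits without 1 library. ERI2 kept its call in all 15 alternatives (-0.73 to -0.64), and the 63 recomputed ERI2 ratios kept their sign (-1.34 to -0.43). The genes changed numbered 1609 in all, 2429 with no count filter, 5292 with replicates 2 and 3 alone, 284 at an adjusted p under 0.01, 703 where a log2 change of 0.5 or more was also required, and from 371 (without knockdown replicate 3) to 2751 (without knockdown replicate 1) with 1 library left out; under total library size 976 were higher and 463 lower, against 809 and 800. Members changed numbered 4 with replicates 2 and 3 alone (ERI2, REXO1, AEN and TREX1), 1 at an adjusted p under 0.01, 1 at that fold size, and from 1 to 3 with 1 library left out. REXO1 without 1 library ranged from 0.35 to 0.51. With the replicate block 203 genes and 1 member, ERI2, changed, and REXO1 was 0.42 (adjusted p = 0.0925 in edgeR); CNOT6L (0.107), EXOSC1 (0.157), NAF1 (0.167), POLRMT (0.0501) and FASTK (0.0514) were not called. Same-numbered libraries did not deviate together (correlations of -0.30, -0.08 and -0.10), and no library correlated best with its own number. Over 3 libraries per group such correlations cannot decide whether the numbers pair the libraries, and the labels do not say. The losses of calls under the replicate block therefore stand as a limit. The fewest reads were those of TREX1, whose interval is the widest.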

Other observations

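Genes next to or overlapping the members in RefSeq's GRCh38.p14 annotation mostly did not pass the test. ERI2 is overlapped by REXO5, itself a DEDD exonuclease, whose symbol could not be matched and which is not analysed here, and by ACSM3, an acyl-CoA synthetase. ACSM3 measured 2.18 CPM in control and 2.10 CPM in knockdown cells (log2 fold change -0.05, edgeR adjusted p = 0.931). THUMPD1 (-0.01, edgeR adjusted p = 0.965) and DCUN1D3 (-0.09, edgeR adjusted p = 0.612), the nearest protein-coding genes that do not overlap ERI2, were not called either. The intronic transcript ERI3-IT1 measured 2.14 against 2.61 CPM (0.28, edgeR adjusted p = 0.518). ADAMTS13, which overlaps REXO4, measured 17.0 against 19.99 CPM (0.23, edgeR adjusted p = 0.414). The neighbour of PARN, BFAR, fell from 78.8 to 66.5 CPM (-0.24, edgeR adjusted p = 0.0420), and no other neighbour that was tested passed.

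Of 10314 genes with a mean of at least 10 CPM, the 5 whose log2 CPM followed that of ERI2 most closely over the 6 libraries were C4orf3 (Pearson's r of 0.998), PIP4K2B (0.998), DENND5B (0.997), MAF (0.996) and DSC3 (0.994). C4orf3 measured 47.3 CPM in control and 30.3 CPM in knockdown cells, a log2 fold change of -0.64, and the other 4 had changes of -0.30 to -0.39. Among the members, r with ERI2 was 0.88 for ERI1, 0.83 for PARN, 0.83 for AEN and -0.86 for REXO1. These values describe 6 libraries that fall into 2 groups and carry no test.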
